A study of Arabidopsis thaliana with 6 samples.

Results

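The UDP-glycosyltransferase (UGT) family of Arabidopsis thaliana was examined as 47 genes, each read by 1 probe set, in seedlings that overexpress the transcription factor gene ASL9 and in wild-type seedlings. Members were the genes whose symbol in the platform annotation starts with UGT and a digit and which had a probe set paired with no other gene. They were chosen among 13356 genes that had such a probe set in the deposited table of 22810 probe sets, and no UGT gene had more than 1. A further 3 UGT probe sets were paired with several genes and were left out, and the RefSeq gene table listed 64 genes with such a symbol or synonym. All 47 probe sets carry the plain suffix that Affymetrix gives to sets designed for a single transcript.

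The wild-type group comprised 3 arrays of accession Col-0 and the transgenic group 3 arrays of a line labelled ASL9-ox, described as transgenic and overexpressing ASL9. Plants of both groups were grown upright on Murashige and Skoog agar and were 2 weeks old. Aerial parts are given as the tissue, although the description of the RNA extraction mentions seedlings without saying that roots were removed. The promoter of the transgene, the number of independent lines and the accession of the transgenic plants were not given in the sources used here. ASL9, also known as LBD3, had no probe set paired with it in the annotation used, so every direction rests on the labels.

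UGTs transfer a sugar from a UDP-sugar to a small acceptor molecule. Plant members glycosylate hormones such as auxin, cytokinin, abscisic acid and salicylic acid, as well as flavonoids, lignin precursors, glucosinolate precursors and foreign compounds, and so change the solubility, storage and activity of the acceptor. The number after UGT names the sequence family and the letter the subfamily, and many subfamilies lie in the genome as rows of neighbouring copies.

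More UGT genes were lower than higher in the ASL9-ox arrays. Among all 47 members, 17 fell and 7 rose, 9 were tested and did not pass the threshold, and 14 were too dim to be tested. The largest falls were those of UGT76E12, UGT87A2, UGT85A2, UGT76E11 and UGT71C2, each by more than 1 on the log2 scale, whereas the largest rise, that of UGT72E1, was 0.74. "Fell" and "rose" mean lower or higher in ASL9-ox with a Benjamini-Hochberg adjusted p below 0.05 in limma's moderated test, adjusted over all 17059 probe sets tested. Fold changes were computed from log2(signal + 16), which makes the ratio between low signals smaller than that of the signals themselves. Signals are the authors' linear values and have no detection call, so a signal below 16 could not be set against background.

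Over all probe sets tested, 17% passed as lower and 24.6% as higher (41.6% in either direction). In the family, 51.5% of the 33 tested members passed as lower and 21.2% as higher. The share of lower calls was thus above that of all probe sets, while the share of higher calls lay near it. Of the 33 tested members, 5 passed as lower and 0 as higher with a change of at least 2-fold. Among all probe sets tested, 4.53% were lower and 2.61% higher to that extent. In 3 of the 5 members neither group's mean was below 16. With 1 added to the signal 12 members changed by at least 2-fold, and with 64 added 3 did. The median log2 fold change was -0.39 over the tested members and -0.20 over all 47, beside 0.08 over all probe sets tested and 0.04 without a filter.

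The filter on low signals could favour members that were bright in 1 group. Of the 33 tested members, 28 exceeded the filter's limit in both groups, among them 14 of the 17 that fell and all 7 that rose, and 5 exceeded it in the wild-type group alone. Without the filter, 18 of 47 members fell and 5 rose, where 12.5% and 16.7% of all probe sets passed in these directions. The arrays of the 2 groups did not overlap in 29 of the 47 members, with ASL9-ox below in 22 and above in 7. Over all probe sets without a filter these shares were 17.5% and 26.4%. All 24 called members were without overlap, but call and overlap are read from the same arrays, so this adds no support. The share of all called probe sets without overlap was not computed.

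**Figure D1:**
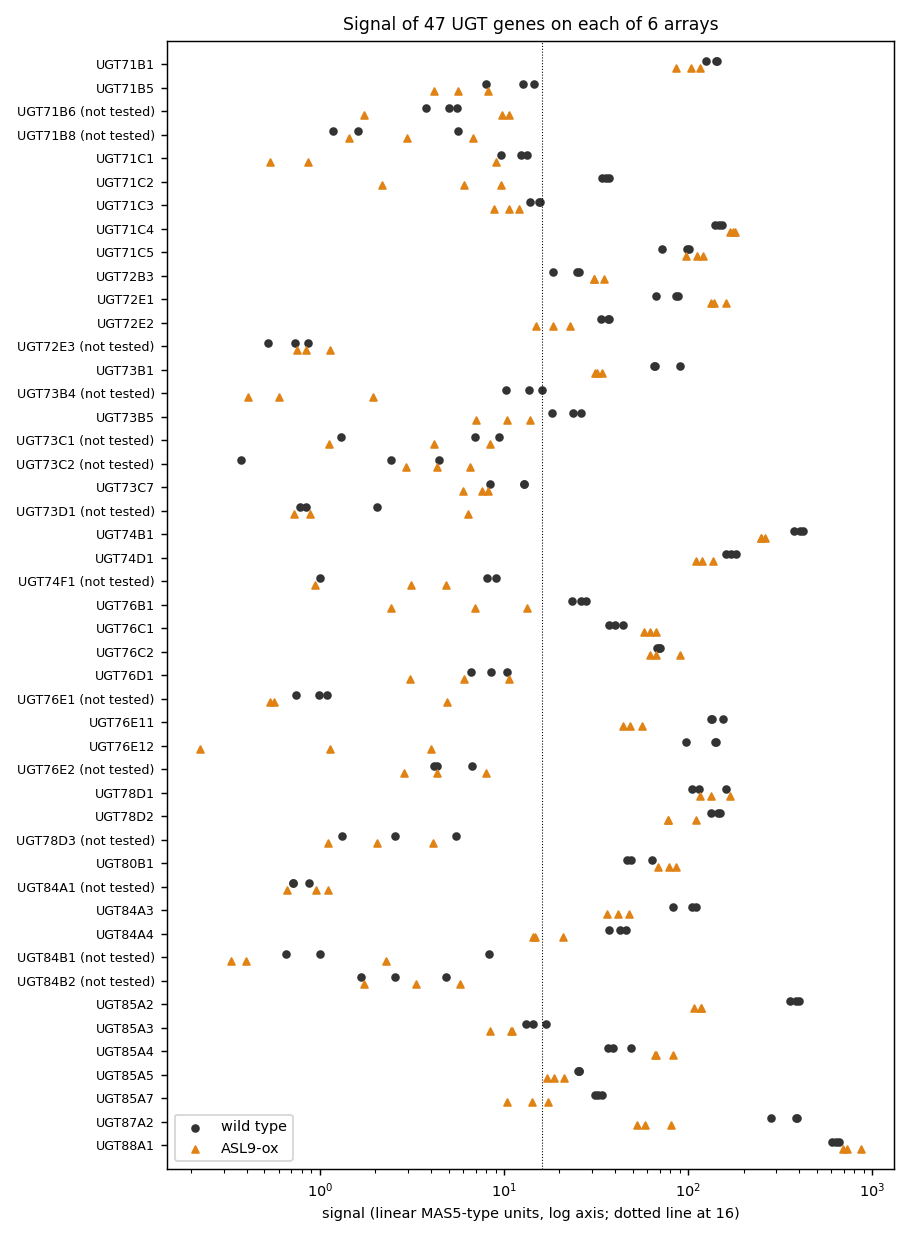
Signal of each of the 47 UGT genes on the 3 wild-type arrays (circles) and the 3 ASL9-ox arrays (triangles), in the deposited linear units on a log axis, with a dotted line at 16. The arrays of the 2 groups are apart in 29 genes, and ASL9-ox is the lower group in 22 of them.

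Members of subfamily UGT76E showed the largest fall of the family. Enzymes of this subfamily glycosylate flavonols and hydroxylated jasmonate in vitro. UGT76E12 had signals of 97.0, 139.8 and 142 on the wild-type arrays and of 1.13, 4.02 and 0.224 on the ASL9-ox arrays. It was the only member to go from near 100 or above to below 16 on every array of the other group. It exceeded the filter's limit in wild type alone. Its log2 fold change was -2.99 ± 0.15 (SE, n = 3 per group, limma adjusted p = 8.40e-07, and 2.19e-05 without the filter). Since the ASL9-ox signals lie below 16, the number added sets this size, and it was -5.73 with 1 added and -1.52 with 64 added.

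Next to it in the genome lies UGT76E11, which has been tied to flavonoid glycosylation and stress tolerance. Its signals were 133, 135 and 154 in wild type and 44.4, 48.1 and 55.9 in ASL9-ox. The fall was 1.26 on the log2 scale (limma adjusted p = 1.15e-05), with both groups well above 16. UGT76E1 and UGT76E2, a neighbouring pair of the same subfamily elsewhere in the genome, were dim on all 6 arrays, with signals of 0.538 to 4.91 and of 2.87 to 7.97, and were not tested.

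UGT87A2, known from work on flowering time and abiotic stress, had signals of 282, 386 and 389 in wild type and of 80.3, 53.0 and 57.9 in ASL9-ox. All ASL9-ox arrays were below all wild-type arrays by a wide margin. The log2 fold change was -2.21 ± 0.15 (SE, n = 3 per group, limma adjusted p = 6.44e-06). The other 2 members outside the 8 numbered groups were higher. UGT80B1, a sterol glucosyltransferase that differs from the rest of the family in its acceptors, went from 52.9 ± 9.54 to 77.8 ± 8.87 (SD, n = 3 per group). UGT88A1 went from 634 ± 27.4 to 765 ± 94.0, a log2 fold change of 0.26 that just passed (limma adjusted p = 0.0462) and was lost without any 1 of 5 arrays, all but ASL9-ox replicate 1. The call of UGT80B1 was lost without wildtype replicate 3 or ASL9-ox replicate 3.

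In the UGT85 group 4 members are neighbours in the genome and the fifth, UGT85A4, lies apart from them. UGT85A2 read 385, 402 and 359 in wild type and 118, 108 and 118 in ASL9-ox. The arrays within each group differed little, and the adjusted p was the smallest of the family (log2 fold change -1.61 ± 0.08, SE, limma adjusted p = 7.38e-07). UGT85A7 fell from 32.5 ± 1.33 to 14 ± 3.5 (SD, n = 3 per group). UGT85A5 went from 25.5 ± 0.28 to 19.0 ± 2.15 and UGT85A3 from 14.8 ± 1.91 to 10.1 ± 1.49; neither passed, with adjusted p-values of 0.0674 and 0.116, although the arrays of the groups did not overlap. UGT85A5 has been linked to salt tolerance. In contrast, UGT85A4 rose, with signals of 38.8, 36.7 and 48.7 in wild type and of 82.5, 66.9 and 66.0 in ASL9-ox (log2 fold change 0.61, limma adjusted p = 0.00226).

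**Figure D2:**
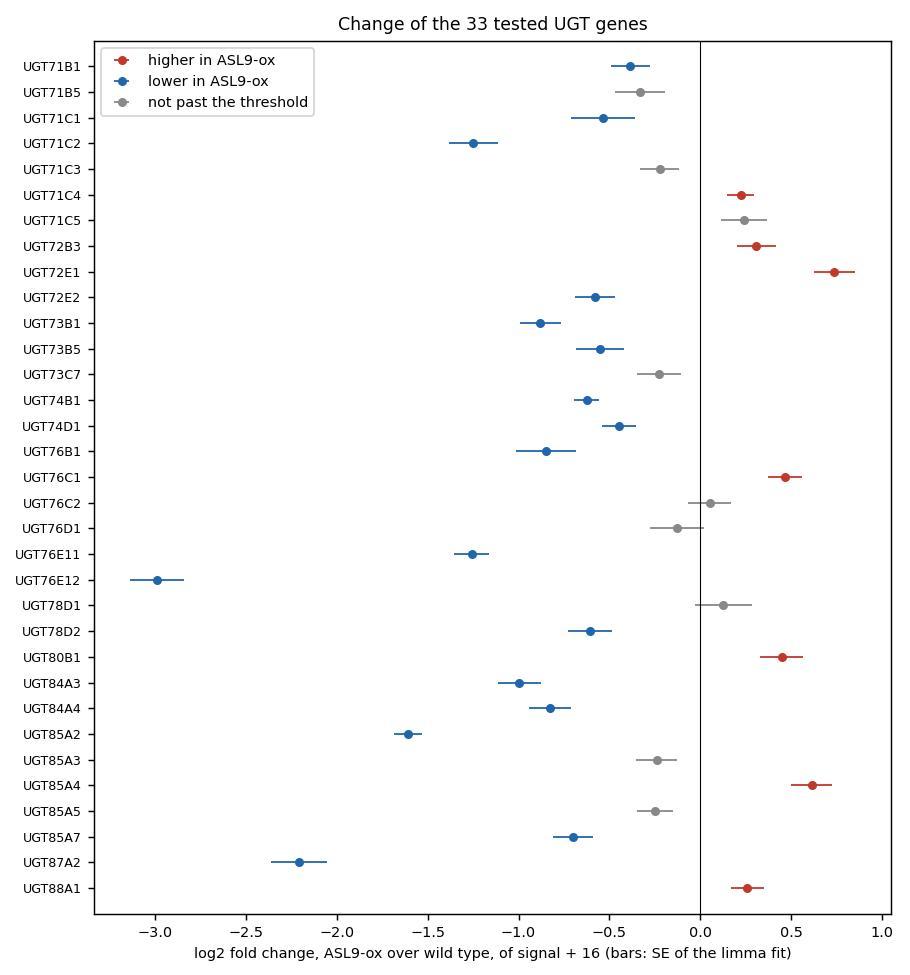
Log2 fold change of signal + 16 (ASL9-ox over wild type) of the 33 tested UGT genes, with bars for the SE of the limma fit. The points reach from -2.99 for UGT76E12 to 0.74 for UGT72E1, with 17 genes lower (blue), 7 higher (red) and 9 that did not pass (grey).

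Genes for enzymes that act on phenolic acids and lignin precursors went in both directions. Members of subfamily UGT84A form glucose esters of hydroxycinnamic acids such as sinapic acid. UGT84A3 read 83.1, 105 and 111 in wild type and 36.1, 41.5 and 47.6 in ASL9-ox, and UGT84A4 read 45.9, 42.6 and 37.0 against 14.7, 14.4 and 20.8. UGT84A3 fell by 1.00 and UGT84A4 fell by 0.83 on the log2 scale (limma adjusted p = 0.000164 and 0.000414). Their neighbour UGT84A1 had signals of 0.666 to 1.1 on the 6 arrays and was not tested.

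The UGT72E enzymes glucosylate monolignols and their aldehydes. UGT72E1, which prefers the aldehydes, had signals of 85.8, 88.1 and 66.5 in wild type and of 160.2, 138 and 133 in ASL9-ox. It rose by 0.74 on the log2 scale (SE 0.11, limma adjusted p = 0.000723). UGT72E2, the main enzyme for coniferyl alcohol glucoside, read 36.5, 33.8 and 37.1 in wild type and 15.0, 18.5 and 22.9 in ASL9-ox, and fell by 0.58 (limma adjusted p = 0.00258). The difference in log2 signal between these 2 genes, taken within each array, changed by 1.32 ± 0.21 (SE) between the groups. UGT72E1 was higher and UGT72E2 lower on every ASL9-ox array than on any wild-type array, so the values of this difference could not overlap. The exact permutation test (two-sided) could thus give only p = 0.1, the smallest that 3 against 3 arrays allow. It adds nothing to the calls of the single genes, and the pair was chosen after its values were seen. UGT72E3 read at most 1.13 on any array and was not tested. UGT72B3 rose by 0.31, from 23.0 ± 3.86 to 32.1 ± 2.25 (SD, n = 3 per group, limma adjusted p = 0.0438), a call that was lost without any 1 of 5 arrays, all but wildtype replicate 1.

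Of the genes for flavonoid enzymes, UGT78D1 and UGT78D2 were bright enough to be tested. UGT78D2 glucosylates flavonols and anthocyanidins at the 3 position, and UGT78D1 adds rhamnose to flavonols at the same position. UGT78D2 read 148, 133 and 144 in wild type and 77.5, 109.7 and 78.1 in ASL9-ox, and fell by 0.61 on the log2 scale (SE 0.12, limma adjusted p = 0.00340). UGT78D1 had signals of 159.7, 105 and 114 against 117, 168 and 132, with overlapping groups and a log2 fold change of 0.13 ± 0.16 (SE, limma adjusted p = 0.553). The within-array difference between the 2 genes changed by -0.74 ± 0.14 (SE) without overlap between the groups. Its exact permutation p of 0.1, the smallest possible here, does not pass 0.05, and this pair too was chosen after its values were seen. UGT78D3, a flavonol arabinosyltransferase gene next to UGT78D2, was not tested (1.11 to 5.50 on the 6 arrays).

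UGT71 members, several of which accept flavonoids, phenolic acids or abscisic acid in vitro, included 3 that fell and 1 that rose. UGT71C2 went from 37.3, 35.9 and 33.8 in wild type to 2.18, 6.04 and 9.64 in ASL9-ox, a log2 fold change of -1.25 ± 0.14 (SE, limma adjusted p = 0.000100), which was -2.56 with 1 added to the signal and -0.51 with 64 added. UGT71C1, its neighbour, read below 16 on all 6 arrays, with 9.62, 13.3 and 12.3 against 9.08, 0.857 and 0.537. Its call (limma adjusted p = 0.0349) was lost without any 1 of 5 arrays, all but ASL9-ox replicate 1 (0.0527 to 0.1085, and 0.00455 without that array). UGT71C2 and UGT71C1 exceeded the filter's limit in wild type alone, with limma adjusted p-values of 0.000524 and 0.0462 without the filter. UGT71B1 fell by 0.39 (137 ± 10.1 to 102 ± 15.3, SD, n = 3 per group). UGT71C4 rose by 0.22, with signals of 148, 139.5 and 153 against 168, 179.6 and 174, a small change whose groups did not overlap (limma adjusted p = 0.0367). Its call was lost when any 1 of the 6 arrays was left out (0.0551 to 0.1137). UGT71C5, an abscisic acid glucosyltransferase gene, had a log2 fold change of 0.24 and did not pass (limma adjusted p = 0.153). UGT71C3 (-0.22) and UGT71B5 (-0.33) did not pass either, and both read below 16 in the mean of each group. UGT71B6 and UGT71B8, whose products also act on abscisic acid, read at most 10.6 and 6.77 and were not tested.

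Among genes for enzymes that act on cytokinins, UGT76C1 and UGT76C2 are neighbours whose products add glucose to a ring nitrogen of the hormone. UGT76C1 had signals of 40.3, 44.3 and 37.2 in wild type and of 57.8, 61.8 and 67.0 in ASL9-ox, and rose by 0.47 on the log2 scale (SE 0.09, limma adjusted p = 0.00316). UGT76C2 read 69.1, 68.1 and 70.4 against 67.2, 90.2 and 61.9, so that 1 ASL9-ox array lay above and the other 2 below the wild-type arrays (log2 fold change 0.05, limma adjusted p = 0.755). The within-array difference between the 2 genes changed by 0.42 ± 0.17 (SE), without overlap (exact permutation p = 0.1, which does not pass 0.05). Like the other pairs compared in this way, it was picked with its values already seen. UGT73C1, which acts on cytokinin oxygens in vitro, was not tested (1.12 to 9.37).

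Auxin-related members were few. UGT74D1, which glucosylates auxin and its oxidised form, read 161, 171 and 182 in wild type and 119, 136 and 111 in ASL9-ox, with the groups apart. It fell by 0.45 on the log2 scale (limma adjusted p = 0.00400). UGT84B1, which forms the glucose ester of auxin, had 1 value of 8.24, on wildtype replicate 2, with 0.327 to 2.28 elsewhere, and UGT84B2 read 1.67 to 5.79. Neither was tested.

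UGT76B1 acts on isoleucic acid and on salicylic acid and related immune signals. Its signals were 23.3, 27.9 and 26.0 in wild type and 13.3, 2.42 and 6.93 in ASL9-ox. It fell by 0.85 on the log2 scale (SE 0.16, limma adjusted p = 0.00293), with all ASL9-ox signals below 16. The number added sets this size, and the log2 fold change was -1.87 with 1 added and -0.33 with 64 added. UGT74F1, a salicylic acid glucosyltransferase gene, read 0.936 to 8.99 on the 6 arrays and was not tested. UGT76D1, whose product acts on dihydroxybenzoic acids, did not pass (log2 fold change -0.13), and its signal was below 16 on every array.

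The glucosinolate gene UGT74B1, whose product adds glucose to the sulphur of the thiohydroximate precursor, had signals of 378, 403 and 421 in wild type and of 261, 250.0 and 249.8 in ASL9-ox. All 3 ASL9-ox arrays were below the wild-type arrays and close to each other. The fall was 0.63 on the log2 scale (SE 0.07, limma adjusted p = 0.000134).

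Members of subfamily UGT73B are known as genes induced by pathogens and oxidative stress. UGT73B1 read 65.1, 66.4 and 89.9 in wild type and 32.1, 34.0 and 31.3 in ASL9-ox, and fell by 0.88 on the log2 scale (limma adjusted p = 0.000298). UGT73B5 fell by 0.55 (18.1, 26.1 and 23.6 against 13.8, 7.08 and 10.4, limma adjusted p = 0.00955). The log2 fold change of UGT73B5 was -1.08 with 1 added to the signal and -0.22 with 64 added. UGT73B4 was just below the filter's limit and was not tested. It had signals of 10.3, 13.7 and 15.99 against 0.596, 0.408 and 1.95, and without the filter its limma adjusted p was 0.000857 (log2 fold change -0.78). The RefSeq gene models of UGT73B4 and UGT73B5 overlap. Of the other 4 members of the UGT73 group, UGT73C7 did not pass (log2 fold change -0.23), and UGT73C1, UGT73C2 and UGT73D1 read at most 9.37 and were not tested.

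**Figure D3:**
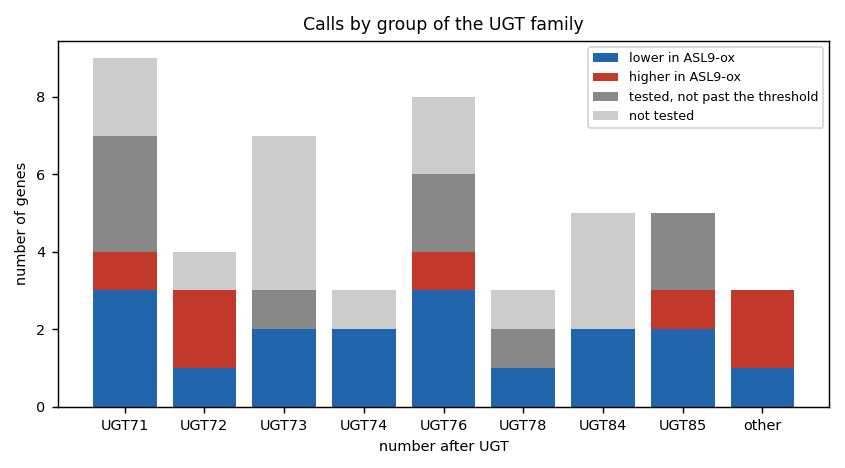
Number of UGT genes that were lower, higher, tested without passing, or not tested, stacked by the number after UGT. Lower calls occur in every group, and higher calls in the UGT71, UGT72, UGT76, UGT85 and remaining genes.

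By group, the median log2 fold change over tested members was negative for UGT71 (-0.33, 7 tested), UGT73 (-0.55, 3), UGT74 (-0.54, 2), UGT76 (-0.49, 6), UGT78 (-0.24, 2), UGT84 (-0.91, 2) and UGT85 (-0.25, 5). It was positive for UGT72 (0.31, 3 tested) and for the 3 remaining genes (0.26). With so few genes per group these medians are descriptions. The UGT73 group had the most members that could not be tested (4 of 7), followed by UGT84 (3 of 5). The 14 untested members never read above 15.99 on any array.

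Position in the genome was examined through the gene order of the RefSeq table, with neighbours defined as UGT genes with at most 1 other protein-coding gene between them. There were 13 such runs with at least 2 measured members, and they held 30 of the 47 members. In 6 runs at least 2 members were tested. In 4 of these, 2 members fell (UGT85A7 and UGT85A2, UGT71C2 and UGT71C1, UGT76E12 and UGT76E11, UGT84A3 and UGT84A4). In the other 2 runs 1 member rose (UGT71C4 and UGT76C1) and none fell. Among tested members, 10 of 18 in runs and 7 of 15 outside runs fell, and 2 and 5 rose. Over all probe sets tested the shares were 17% lower and 24.6% higher. Falls were thus about as frequent outside runs as in them, so the pairs of falls are not read as a trait of neighbours. UGT71C2, UGT71C1 and UGT76E12 exceeded the filter's limit in wild type alone, and without the call of UGT71C1, lost when most single arrays were left out and under the replicate block, the runs with 2 falls number 3. The rise of UGT71C4 was lost without any 1 array. No run held calls in both directions (0 of 13), but only 4 runs had more than 1 call and could have shown this. The within-array difference between UGT85A2 and UGT85A5 changed by -1.36 ± 0.10 (SE, exact permutation p = 0.1), one of 4 such gene pairs compared, all chosen after their values were seen, and over these 4 pairs each adjusted p was 0.1, which does not pass 0.05. Other sizes within runs were not compared. Neighbouring copies are similar in sequence, and cross-hybridization between them was not tested.

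**Figure D4:**
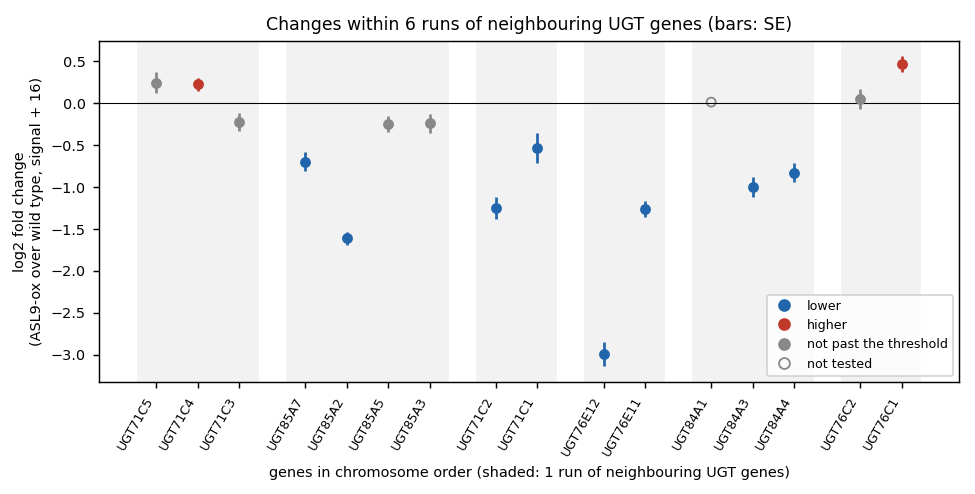
Log2 fold change of signal + 16 (ASL9-ox over wild type, bars for SE) of the measured genes in the 6 runs of neighbouring UGT genes with at least 2 tested members, in chromosome order. The runs of UGT85A, UGT71C2 with UGT71C1, UGT76E and UGT84A each hold 2 lower genes, and those of UGT71C5 to UGT71C3 and of UGT76C hold 1 higher gene each.

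The number of rises depended on the scaling more than the number of falls. When arrays were centred on the bacterial and phage controls added at hybridization, 17 members fell and 4 rose (UGT72E1, UGT76C1, UGT80B1 and UGT85A4), where 17.1% and 13.8% of all probe sets passed. The higher share of the calls was then 19.0% in place of 29.2% in the family, and 44.6% in place of 59.2% over all probe sets. UGT71C4, UGT72B3 and UGT88A1 lost their calls under this scaling (limma adjusted p = 0.437, 0.192 and 0.318). Wildtype replicate 2 stood apart in the series, with seed genes such as OLEO3 at 504 there and 4.54 to 9.88 on the other arrays. In the family this array lay over 0.5 log2 units from the other wild-type arrays in 1 member, the untested UGT84B1. Without this array 16 members fell and 4 rose, while 5964 probe sets passed in either direction in place of 7096. Their shares by direction were not computed.

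The lists of pathways that supply or use the same substrates were thinly measured, so none of them stands for its pathway. A gene counted as measured only where the platform annotation used here paired a probe set with that gene alone. Measured were 5 of 44 phenylpropanoid and flavonoid genes, 3 of 36 glucosinolate genes and 2 of 40 cytokinin genes. Of 4 tested phenylpropanoid and flavonoid genes without UGT in the symbol 3 fell and none rose. Among all probe sets tested, 17% passed as lower and 24.6% as higher. The 3 that fell were UF3GT, which encodes an anthocyanin glycosyltransferase (-1.45), DFR, which encodes a reductase of the anthocyanin pathway (-1.37), and HCT, whose product acts in lignin synthesis (-0.48). UF3GT read 97.6, 60.2 and 76.5 in wild type and 6.76, 29.5 and 22.0 in ASL9-ox, with the groups apart. The fourth, ALDH2C4, had a log2 fold change of 0.29 and did not pass. In the glucosinolate list BCAT4, which acts in the chain elongation of methionine upstream of UGT74B1, fell by 0.86, and AOP1 and AOP3 did not pass. Both tested cytokinin response genes, RR16 and ARR15, passed as higher, as did 24.6% of all probe sets tested. ARR15 read 11.6, 1.85 and 9.43 in wild type and 33.01, 49.8 and 26.7 in ASL9-ox, so that the number added sets the size of its rise (1.15 with 16 added, 2.33 with 1 and 0.48 with 64). RR16 rose by 1.15 (1.55 with 1 added and 0.64 with 64).

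In the list of auxin, abscisic acid and brassinosteroid metabolism, 7 of 35 genes were measured. The 6 tested genes all belong to auxin conjugation or synthesis, and 3 fell and 3 rose. Among all probe sets tested, 17% passed as lower and 24.6% as higher. Once arrays were centred on the hybridization controls, GH3.3 and GH3.9 still passed as higher (2 genes), and the auxin synthesis gene YUC2 (0.37, limma adjusted p = 0.0114) did not pass (0.1075). GH3.17 and WES1 (GH3.5), whose products join amino acids to auxin, fell by 2.41 and fell by 2.26 respectively, GH3.1 fell by 0.73 with ASL9-ox signals of 3.36 to 5.47, and GH3.9 rose by 0.54. The xenobiotic list had 2 tested genes, of which GSTU25 fell and GSTU22 (-0.31) did not pass. GSTU25 read 28.1, 19.5 and 16.8 in wild type and 0.918, 1.04 and 5.13 in ASL9-ox, and its log2 fold change was -1.02 with 16 added, -2.93 with 1 and -0.36 with 64. SAG101, the only tested gene of the salicylic acid list, did not pass (-0.01). USP, which encodes a UDP-sugar pyrophosphorylase and was the only measured gene of the list of UDP-sugar supply, rose by 0.37 (limma adjusted p = 0.0153), and did not pass with centring on the hybridization controls (0.0783).

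**Figure D5:**
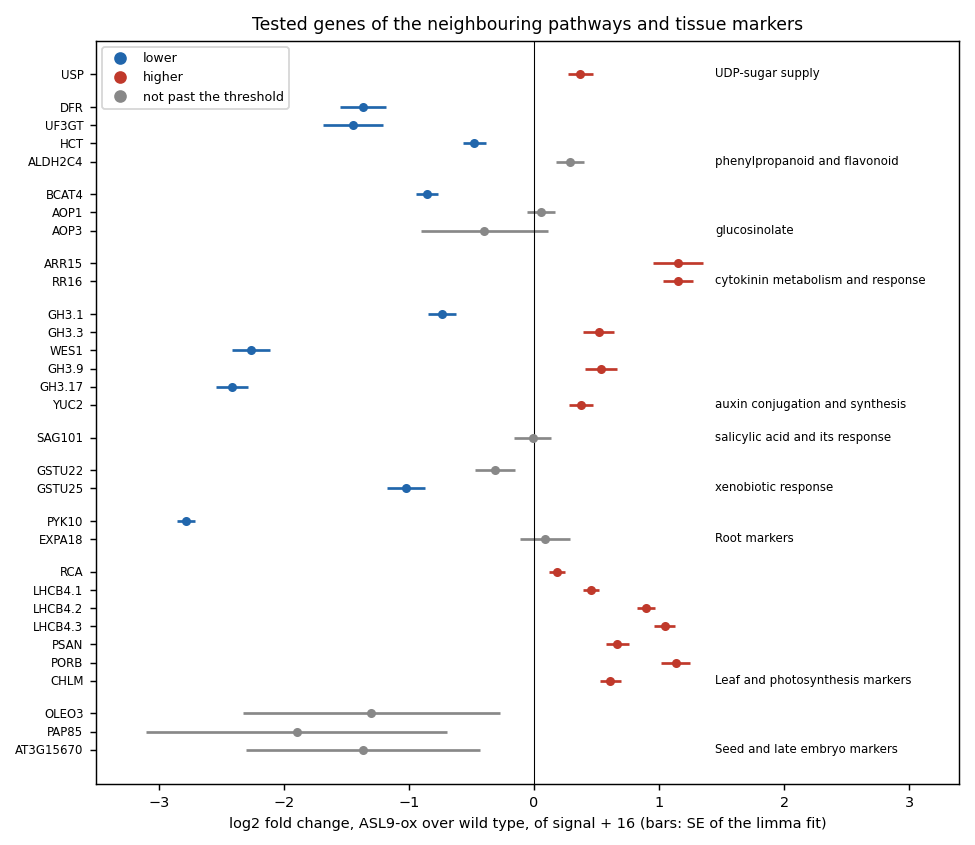
Log2 fold change of signal + 16 (ASL9-ox over wild type, bars for SE of the limma fit) of the tested genes in the lists of neighbouring pathways and tissue markers. PYK10 lies at -2.78, the 7 leaf genes lie between 0.18 and 1.13, and the 3 seed genes have wide bars because of wildtype replicate 2.

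Some markers of organs differed between the groups as well. Only 3 of 23 root markers and 7 of 15 leaf and photosynthesis markers were measured, so neither list stands for its organ. PYK10 encodes a beta-glucosidase that is abundant in roots and hypocotyls, and it read 3168, 2847 and 3149 in wild type and 408, 429 and 453 in ASL9-ox (log2 fold change -2.78). The summed signal of the 3 measured root markers, from 2851 to 3186 in wild type and from 414 to 470.1 in ASL9-ox, is nearly all PYK10. The 2 root hair genes among them, EXPA7 and EXPA18, read at most 13.3 on all arrays, and EXPA18, the other tested root marker, did not pass (log2 fold change 0.09, limma adjusted p = 0.758). All 7 measured leaf and photosynthesis markers rose, where 24.6% of all probe sets tested did, with a summed signal of 13995 to 15859 in wild type and of 21483 to 22578 in ASL9-ox. RCA, the gene for Rubisco activase, had the smallest of these rises (0.18, limma adjusted p = 0.0402), and did not pass with centring on the hybridization controls (0.3925), where 6 of the 7 passed beside 13.8% of all probe sets, without the filter (0.1153) or without wildtype replicate 2 (0.0950). The part of root or hypocotyl tissue in the UGT falls was not tested. In bulk tissue, fewer cells of a type and less RNA per cell cannot be told apart.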

How the data were processed

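RNA of 6 samples was hybridized to 6 Affymetrix ATH1 arrays, 3 per group. The authors made the deposited intensity values with MAS5 and GCOS, per the submitters' processing notes, whose versions were not stated there. Intensities were linear. Trimmed of 2% at either end, they averaged 99.96 on every array, which shows a common scaling that would hide a shift of all transcripts in 1 direction. Replicates were numbered in the sample titles; whether they were grown as separate cultures is not said, and p-values thus cover only the spread between these samples, possibly technical. The number of arrays limits the precision.

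Values were taken as log2(signal + 16). Control probe sets (64) were removed, then the 25% of the remainder with the lowest mean log2 value, which kept 17059. The test was limma 3.58.1 under R 4.3.3 (lmFit, eBayes with an intensity trend, two-sided, Benjamini-Hochberg over all 17059, threshold 0.05). Gene pairs were compared by exact permutation with scipy 1.17.1, and figures drawn with matplotlib 3.10.9. Probe sets were named through the platform annotation; all 47 UGT genes matched the RefSeq table (TAIR10.1), used for names and gene order only. Members, lists and alternatives were chosen with earlier results of these data known.

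Named by rule were the 8 largest rises and falls, the member with the largest change in each numbered group, members with known substrates, members of runs, and up to 4 genes per neighbouring list. UGT71B1, UGT71B5 and UGT76D1 are named to account for every member, and OLEO3, ALDH2C4, AOP1, AOP3, GSTU22, GH3.3, YUC2, RCA, EXPA7 and EXPA18 were picked with their values already seen. In the flavonoid list, the symbol CHI belongs to a chitinase gene in the tables used, so TT5 was looked up instead. Flower markers had 1 measured gene, AGL66, which read 2.80 to 11.0 and was not tested. Alternatives covered normalization, pseudocount, filter, variance model, array weights, replicate block, threshold, single arrays left out, and averaging the probe sets of 1 gene.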

Additional observations from a re-analysis of the deposited data

How the results depend on the processing

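The 17 falls and 7 rises were recomputed under 19 other settings. Falls numbered 15 to 18 in all of them but 1. With the dimmest 50% left out, 9 of 18 tested members fell and 6 rose, so this filter removed more falls than rises. Of the 19 settings, shares of all probe sets passing in each direction were computed only with no filter and with centring on the hybridization controls. Rises were 4 with arrays centred on their median, 4 with centring on the hybridization controls, 4 under a replicate block and 3 at a threshold of 0.01; the cause was not tested. Omitting single arrays gave 15 to 16 falls, 3 to 5 rises, 5 to 6 changes of at least 2-fold, a median of -0.44 to -0.36 and 5594 to 6399 calls over all probe sets. There were 3 rises without wildtype replicate 3 or ASL9-ox replicate 3, and 4 without wildtype replicate 2 or ASL9-ox replicate 2. Changes of at least 2-fold numbered 12 with a pseudocount of 1, 3 with 64 and 3 with the dimmest 50% left out, in place of 5, and the median log2 fold change was -0.56, -0.17 and -0.17, in place of -0.39; the number added sets the size of changes at low signals. At 0.01, 4569 probe sets passed in place of 7096.

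Of 557 values for 30 tested UGT genes, 507 kept direction and side of the threshold, 45 lost a call, 2 gained one and 3 changed sign, and 22 genes kept both throughout. UGT71B1, UGT71B5 and UGT76D1 were not among the 30, and the fall of UGT71B1 (limma adjusted p = 0.0188) does not pass 0.01. Both gained calls were those of UGT85A5, with centring on the array median and with eBayes without an intensity trend. UGT71C4 and UGT88A1 each lost the call in 12 settings, UGT72B3 in 11, UGT71C1 in 7 and UGT80B1 in 3. The sign changed for UGT76C2 with centring on the hybridization controls (-0.031) and without ASL9-ox replicate 2, for UGT78D1 without ASL9-ox replicate 2, and for SAG101 without wildtype replicate 2, wildtype replicate 3 or ASL9-ox replicate 1. With single arrays omitted UGT76C2 ran from -0.082 to 0.14, UGT78D1 from -0.0024 to 0.29 and SAG101 from -0.14 to 0.090; none of these genes was called. Same-numbered arrays deviated from their group means with correlations of -0.12, -0.06 and 0.02 and were not taken as pairs; under the block UGT71C1 (0.0572) and 3 rises lost their calls. Without detection calls, signals below 16 set no bound.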
